A study of Mus musculus with 12 samples.

Results

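*Dek* and 4 protein-coding genes close to it on mouse chromosome 13, *Kdm1b*, *Rnf144b*, *Tpmt* and *Nhlrc1*, were followed through 12 RNA sequencing libraries of mouse hippocampus. They were found by their Ensembl identifiers in the GENCODE M21 annotation of GRCm38, and all 5 were among the 26409 genes listed. The libraries formed 4 groups of 3, female wild-type (WT), female *Dek* knockout (cKO), male WT and male *Dek* cKO, all from adult mice. The knockout allele was made by placing loxP sites on either side of exons 3 and 4 of *Dek* and crossing to mice with Cre recombinase under the CMV promoter, which acts in nearly every cell. Cre was then bred away, and *Dek* cKO mice came from matings of heterozygotes, so the deletion was inherited and present in every tissue rather than in one cell type. The 3 female WT libraries carry a C57 name prefix and the other 9 a CMV prefix, so among females prefix and genotype cannot be told apart. The comparisons ask how much *Dek* transcript was left in each library and whether genes beside the deleted allele differed between genotypes.

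DEK is an abundant chromatin protein that binds DNA of unusual structure, takes part in the deposition of histone H3.3 and associates with messenger RNA splicing. *Kdm1b* encodes LSD2, a demethylase of histone H3 lysine residues, and *Rnf144b* an E3 ubiquitin ligase of the RING-between-RING class. *Tpmt* encodes thiopurine methyltransferase, which inactivates thiopurine drugs. *Nhlrc1* encodes malin, an E3 ubiquitin ligase that works with laforin in glycogen metabolism and whose loss causes Lafora disease, a progressive epilepsy.

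In GRCm38, *Dek* (ENSMUSG00000021377) spans chr13:47084775-47106201 on the minus strand. *Rnf144b* (ENSMUSG00000038068; chr13:47122656-47247991, plus strand) starts 16.5 kb from the *Dek* start and is transcribed away from it. *Tpmt* (ENSMUSG00000021376; chr13:47022482-47044737, minus strand) starts 61.5 kb away. *Kdm1b* (ENSMUSG00000038080; chr13:47043499-47085279, plus strand) starts 62.7 kb away and runs towards *Dek*. Their 3′ ends overlap by 505 bases that are exonic in both genes, on opposite strands. *Nhlrc1* (ENSMUSG00000044231; chr13:47012557-47014850, minus strand), a gene of 1 exon, starts 91.4 kb away. *Tpmt* and *Kdm1b* overlap by 1239 bases at their 5′ ends without sharing exonic bases.

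Exons 3 and 4 are shown because they are the part of *Dek* that the knockout removes, if the exon numbers of the study are those of Dek-201, the longest annotated transcript. Exon 3 lies at chr13:47101973-47102074 and exon 4 at chr13:47101623-47101732 (GRCm38, minus strand), and both are coding. The third line joins the coding bases of exon 2 directly to exon 5, up to the first in-frame stop codon, which is in capitals.
Dek exon 3: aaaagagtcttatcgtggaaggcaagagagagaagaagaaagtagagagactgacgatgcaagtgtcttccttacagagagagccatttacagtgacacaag
Dek exon 4: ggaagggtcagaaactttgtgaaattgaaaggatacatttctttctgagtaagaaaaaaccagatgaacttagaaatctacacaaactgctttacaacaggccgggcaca
Dek exon 2 coding bases joined to exon 5: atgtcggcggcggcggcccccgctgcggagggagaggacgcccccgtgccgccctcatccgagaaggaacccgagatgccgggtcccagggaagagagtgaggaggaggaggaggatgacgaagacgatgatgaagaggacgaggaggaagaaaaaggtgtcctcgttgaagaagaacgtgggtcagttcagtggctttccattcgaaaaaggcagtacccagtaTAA
The exons are 102 and 110 bases long. Their 212 bases are 8.29% of the 2556 bases of Dek-201 and 18.5% of its coding bases. Because 212 is not a multiple of 3, the joined sequence leaves the annotated frame after 52 of 380 codons and reaches a stop after 75. That stop lies in exon 5, 691 bases before the last exon junction. Of 7 annotated *Dek* transcripts, 4 hold both exons and 3 hold neither. Among those 3, Dek-204 and Dek-207 begin downstream of exon 4 and Dek-206 ends upstream of exon 3. The deposited table has 1 value per gene, so which transcripts made up the *Dek* signal was not tested.

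**Figure D1:**
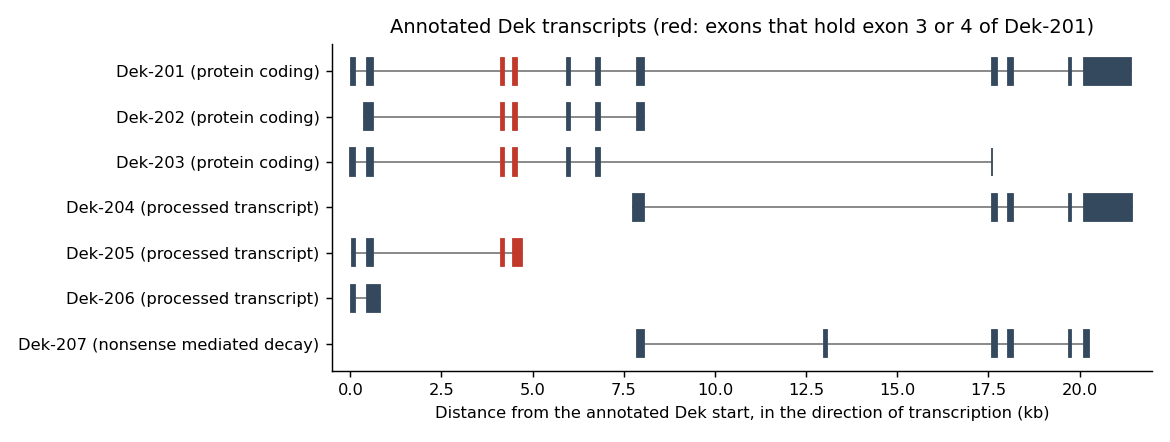
Exons (boxes) of the 7 annotated *Dek* transcripts against distance from the annotated start in kb; red boxes hold exon 3 or 4 of Dek-201. Dek-201, Dek-202, Dek-203 and Dek-205 contain both, and Dek-204, Dek-206 and Dek-207 contain neither.

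Expression was deposited as TPM, a measure of transcript abundance, which are scaled for transcript length and library total, so levels may be compared between genes but read depth is unknown. The listed genes summed to 825750 to 845553 TPM per library, and 18104 to 18719 genes were above 0. All 59 genes of 12 marker lists were listed, and 58 had a mean of at least 1 TPM. Dentate granule cell markers summed to 139 to 200.9 TPM in WT and 144 to 225 TPM in *Dek* cKO libraries, and CA1 markers to 269 to 322 TPM and 229 to 303 TPM. Choroid plexus markers, a sign of neighbouring tissue, ranged from 69.5 to 3039 TPM in WT and from 45.8 to 4443 TPM in *Dek* cKO libraries. Thalamus and habenula markers summed to 30.7 to 58.4 TPM, with *Gbx2* at 0 in at least 1 library. Y-linked genes went against the sex label in 2 libraries, female *Dek* cKO replicate 3 (107.57 TPM over 4 genes) and male *Dek* cKO replicate 1 (0.642 TPM). Male WT libraries had 110 to 125 TPM and female WT libraries 0.613 to 1.77 TPM. Fold changes within a sex are therefore given with and without both libraries.

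*Dek* transcript fell in every *Dek* cKO library and did not disappear from any. In female WT libraries *Dek* was at 49.5, 44.2 and 47.0 TPM, and in male WT libraries at 51.9, 48.7 and 48.8 TPM. In female *Dek* cKO libraries it was at 6.52, 9.25 and 6.52 TPM, and in male *Dek* cKO libraries at 7.47, 8.10 and 5.55 TPM. The genotypes did not overlap, since the highest *Dek* cKO value lay far below the lowest WT value. The mean was 48.3 ± 2.58 TPM in WT (SD, n = 6) and 7.23 ± 1.32 TPM in *Dek* cKO (SD, n = 6). The log2 fold change was -2.74 (95% confidence interval -2.96 to -2.52, limma adjusted p = 1.17e-08). An exact two-sided permutation test of the 6 against 6 libraries gave p = 0.00216, the smallest p this design allows. For 0.104% of the genes tested, all 6 *Dek* cKO values lay below the 6 WT values. *Dek* was the 1 member of 5 to pass the threshold (adjusted p below 0.05 and a change of more than 1.2-fold), which 0.148% of the 18197 genes tested did. This is the deleted gene, and its fall checks the genotype labels. The deletion was inherited and present in every tissue. Whether the mix of cells in whole tissue added to the size of the fall was not tested. The summed dentate markers overlapped between genotypes as given above.

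**Figure D2:**
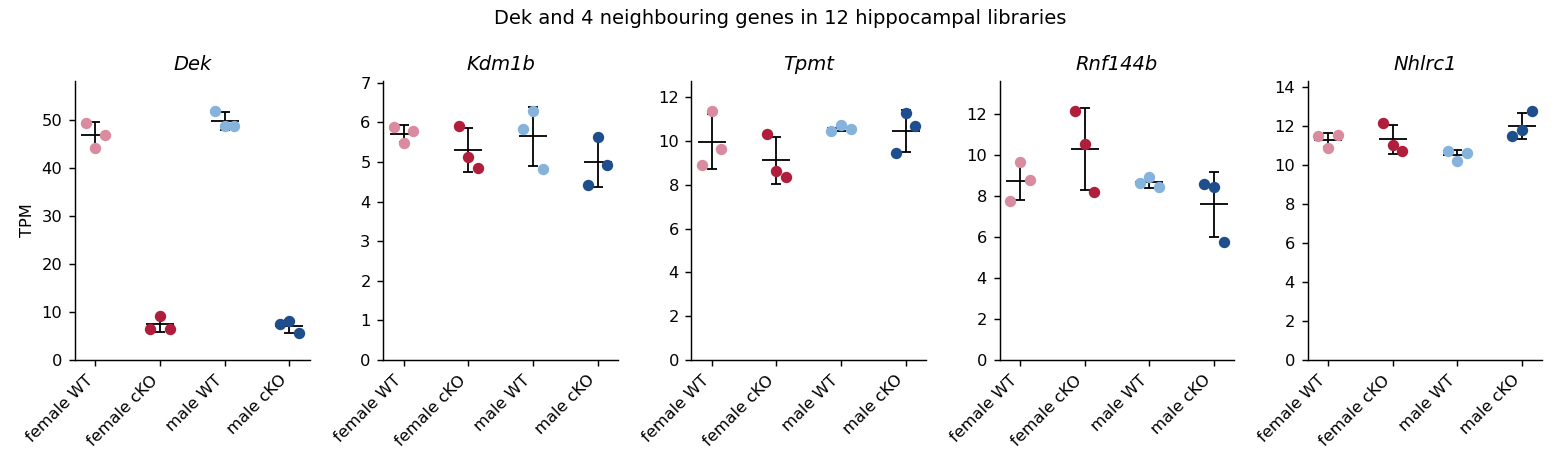
TPM of the 5 genes in each of 12 libraries (points), with the mean and SD of each group of 3 (bars); each vertical axis starts at 0 and has its own range. *Dek* separates the genotypes, at 44.2 TPM or more in WT and 9.25 TPM or less in *Dek* cKO, whereas each of the 4 neighbours has overlapping values over the 6 WT and 6 *Dek* cKO libraries.

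A residual *Dek* signal was present in each of the 6 *Dek* cKO libraries. As a percentage of the mean of all WT libraries, it was 13.5%, 19.1% and 13.5% in the female *Dek* cKO libraries and 15.4%, 16.8% and 11.5% in the male ones. Female replicate 2 was the highest and male replicate 3 the lowest. The mean residual was 14.96% ± 2.73 (SD, n = 6). Against the WT mean of the same sex it ranged from 13.9% to 19.7% in females and from 11.1% to 16.3% in males, ranges that do not rest on the libraries of conflicting sex. A transcript lacking exons 3 and 4 would still hold 2344 of the 2556 bases of Dek-201 on which reads could be counted. The WT level stood at percentile 83.3 of the 18197 tested genes and the *Dek* cKO level at percentile 45.2, so the gene remained near the middle of the detected range. The coefficient of variation of *Dek* was 5.35% among WT and 18.3% among *Dek* cKO libraries.

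*Dek* fell in both sexes. The log2 fold change was -2.66 in females (95% confidence interval -3.00 to -2.32, limma adjusted p = 3.30e-05) and -2.82 in males (-3.16 to -2.49, adjusted p = 1.72e-05). In each sex, 0.0165% of the genes tested passed the same threshold. All 3 *Dek* cKO values lay below the 3 WT values, as they did for 4.59% of genes in females and 3.84% in males. Without both libraries of conflicting sex, the values were -2.58 and -2.87. The difference between the sexes, as the interaction of sex and genotype, was -0.16 on the log2 scale (95% confidence interval -0.64 to 0.31, limma adjusted p = 0.966), and -0.30 without both libraries of conflicting sex (limma adjusted p = 0.747). The interval over all libraries leaves room for residual levels that differ between males and females by a factor of 0.641 to 1.24. No gene passed the threshold for the interaction (0%), and 770 genes (4.23%) had an unadjusted p under 0.05.

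*Kdm1b*, the gene that meets *Dek* tail to tail, was the least abundant member in WT. It was at 5.90, 5.47 and 5.78 TPM in female WT and at 5.84, 6.29 and 4.84 TPM in male WT libraries. In *Dek* cKO libraries it was at 5.92, 5.14 and 4.84 TPM in females and at 4.42, 5.64 and 4.91 TPM in males. Values of the genotypes overlapped in both sexes, and the lowest value belonged to a male *Dek* cKO library. The means were 5.69 ± 0.492 TPM in WT and 5.14 ± 0.551 TPM in *Dek* cKO (SD, n = 6 each). The log2 difference was -0.14 (95% confidence interval -0.35 to 0.06, limma adjusted p = 0.864, exact permutation p = 0.110), an interval that spans folds of 0.786 to 1.04. Without both libraries of conflicting sex it was -0.07. Within females it was -0.11 with and -0.05 without those libraries, and within males -0.18 and -0.09, and the genotypes overlapped in each sex without them too. The libraries were made with a stranded kit, but whether the counting used the strand in the 505 bases shared with *Dek* is not given in the sources used here.

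*Tpmt* showed no difference beyond the spread between libraries. It was at 8.90, 11.4 and 9.64 TPM in female WT and at 10.5, 10.7 and 10.6 TPM in male WT libraries. In *Dek* cKO libraries it was at 10.3, 8.64 and 8.38 TPM in females and at 9.44, 11.3 and 10.7 TPM in males. The male WT libraries lay close together and within the range of the male *Dek* cKO libraries. Means were 10.3 ± 0.877 TPM in WT and 9.79 ± 1.16 TPM in *Dek* cKO (SD, n = 6 each). The log2 difference was -0.07 (95% confidence interval -0.27 to 0.12, limma adjusted p = 0.941, exact permutation p = 0.400). The data leave room for folds of 0.831 to 1.09. It was -0.01 without both libraries of conflicting sex and -0.12 among libraries with the CMV prefix. Within females it was -0.13 with and -0.07 without the conflicting libraries, and within males -0.02 and 0.05.

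*Rnf144b* has the closest start to that of *Dek* among the 4 neighbours. Its means were close in the 2 genotypes, and its values were more scattered among *Dek* cKO libraries. It was at 7.75, 9.64 and 8.80 TPM in female WT and at 8.65, 8.94 and 8.42 TPM in male WT libraries. In *Dek* cKO libraries it was at 12.2, 10.6 and 8.18 TPM in females and at 8.59, 8.46 and 5.78 TPM in males. The WT libraries thus lay inside the range of the *Dek* cKO libraries, whose highest value came from a female and lowest from a male. The means were 8.70 ± 0.622 TPM in WT and 8.95 ± 2.19 TPM in *Dek* cKO (SD, n = 6 each), and the coefficient of variation was 7.15% against 24.4%. The log2 difference was 0.0072 (95% confidence interval -0.30 to 0.31, limma adjusted p = 0.999, exact permutation p = 0.965), and its sign turned with the scaling between libraries, to -0.01 under median ratio rescaling. Male *Dek* cKO replicate 3, the lowest library, also stood apart in some astrocyte markers, whose part in the *Rnf144b* value was not tested. *Gfap* was at 1267 TPM there against 208 to 437 TPM in the other libraries and *Aqp4* at 99.4 TPM against 43.3 to 57.3 TPM. *Gja1* was lower, at 68.6 TPM against 116 to 151 TPM, and the 4 astrocyte markers other than *Gfap* summed to 708 TPM, within the 640 to 780.3 TPM of the other libraries. Without that library the log2 difference was 0.12.

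By sex, the *Rnf144b* difference was 0.22 in females and -0.21 in males. The interaction was -0.43 on the log2 scale (95% confidence interval -0.98 to 0.12, limma unadjusted p = 0.111, adjusted p = 0.966). Without both libraries of conflicting sex, females had 0.38 and males -0.31, and the interaction was -0.68 (limma unadjusted p = 0.0175, adjusted p = 0.462). In that smaller set 1601 of 18198 genes had an unadjusted interaction p under 0.05. The female genotypes of *Rnf144b* did not overlap there, with 2 *Dek* cKO libraries left, whereas the male ones did. The share of all genes that separated in this set was not counted. The female difference had an unadjusted p of 0.0497 in limma (adjusted p = 0.582), and 1558 genes had a female unadjusted p under 0.05. A difference between the sexes was thus not shown for this gene.

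*Nhlrc1* was the most abundant neighbour and the only one whose genotype groups separated within a sex over all libraries. In males it was at 10.7, 10.2 and 10.6 TPM in WT and at 11.5, 11.8 and 12.8 TPM in *Dek* cKO libraries. All 3 male *Dek* cKO values lay above the 3 male WT values, as they did for 5.91% of the genes tested. In females it was at 11.5, 10.9 and 11.5 TPM in WT and at 12.2, 11.1 and 10.8 TPM in *Dek* cKO libraries, which overlapped. Over both sexes the means were 10.9 ± 0.519 TPM in WT and 11.7 ± 0.745 TPM in *Dek* cKO (SD, n = 6 each). The log2 difference was 0.10 (95% confidence interval -0.04 to 0.23, limma adjusted p = 0.855, exact permutation p = 0.0606), and it was 0.15 among libraries with the CMV prefix.

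In males the *Nhlrc1* log2 difference was 0.19 (95% confidence interval 0.01 to 0.38, limma unadjusted p = 0.0440, adjusted p = 0.880). The exact permutation p was 0.1, the smallest that 3 against 3 allows. An unadjusted p under 0.05 was reached by 5.45% of genes in males. In females the difference was 0.0011 (limma adjusted p = 1). The interaction was 0.19 (95% confidence interval -0.07 to 0.45, limma unadjusted p = 0.139), so a difference between the sexes was not shown. Without both libraries of conflicting sex, the log2 differences were 0.22 in males and 0.04 in females.

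**Figure D3:**
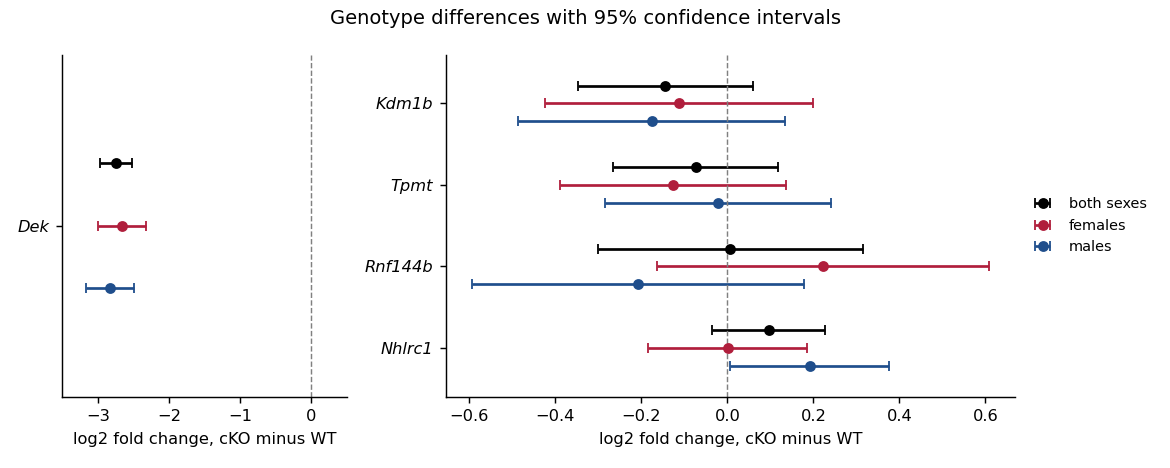
Log2 fold change between *Dek* cKO and WT (points) with 95% confidence intervals (bars) for each gene, over both sexes, females and males; *Dek* has its own axis. The intervals of *Dek* lie between -3.16 and -2.32, and those of the neighbours include 0, except that of *Nhlrc1* in males (0.01 to 0.38).

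The loss of *Dek* transcript changed its rank among these genes. In WT the order of mean TPM was *Dek*, *Nhlrc1*, *Tpmt*, *Rnf144b* and *Kdm1b*. *Dek* stood above the rest in every WT library and *Kdm1b* below the rest, whereas the ranges of *Nhlrc1* and *Tpmt* overlapped, as did those of *Tpmt* and *Rnf144b*. In *Dek* cKO the order was *Nhlrc1*, *Tpmt*, *Rnf144b*, *Dek* and *Kdm1b*, and each gene's range overlapped with that of the next. In every *Dek* cKO library residual *Dek* lay above *Kdm1b* and below *Nhlrc1*, whereas its range overlapped with those of *Tpmt* and *Rnf144b*.

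No other tested gene near *Dek* passed the threshold. Within 0.5 Mb of the *Dek* start the annotation holds 22 genes, 8 of them protein-coding. Only these 8 were listed, so the non-coding genes and pseudogenes there have no values. Among those without values is the non-coding gene *1700026N04Rik*, which starts 0.218 kb from the *Dek* start. The other 3 coding genes were *Kif13a*, a kinesin motor, *Nup153*, a nuclear pore component, and *Fam8a1*. Their log2 differences were 0.03, -0.02 and 0.01. Within 5 Mb, 55 genes other than *Dek* were tested and 0 passed in limma, beside 0.148% of all genes. Their median log2 difference was 0.0072, and that of all genes tested was 0.02. An unadjusted p under 0.05 was found for 1 of the 55, the F-box gene *Fbxw17*, named here after its values were seen. It was at 3.997 TPM in WT and 3.18 TPM in *Dek* cKO, a log2 difference of -0.31 (limma unadjusted p = 0.0372, adjusted p = 0.712). Over all genes this share was 6.64%.

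**Figure D4:**
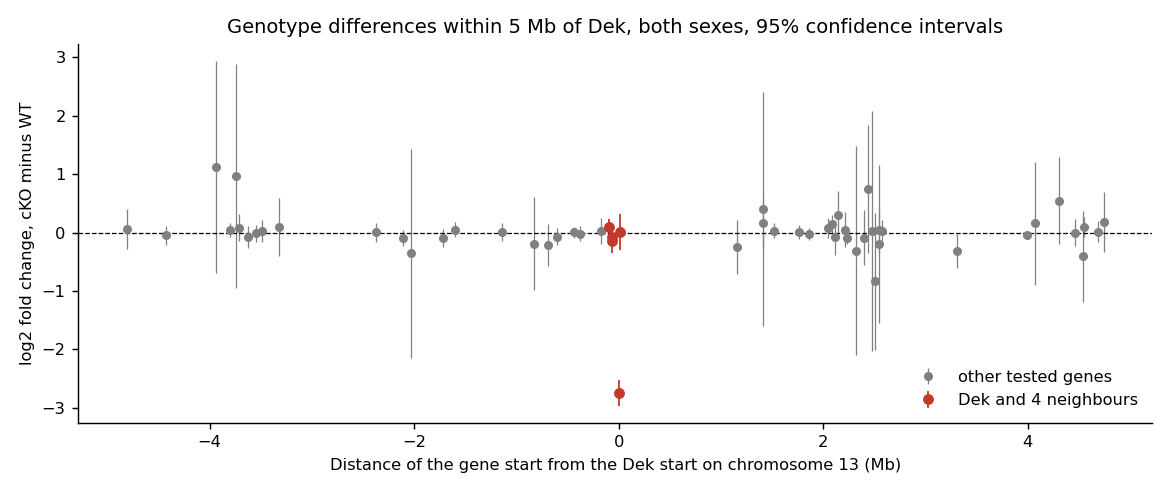
Log2 fold change between *Dek* cKO and WT over both sexes (points, with 95% confidence intervals) against the distance of each gene's start from that of *Dek*, in Mb, for *Dek* and the 55 other tested genes within 5 Mb. *Dek*, at -2.74, stands alone below the others, and the 4 neighbours lie between -0.14 and 0.10.

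Over the whole of chromosome 13, 1 gene other than *Dek* passed the threshold, beside 0.148% of all genes tested. Of 628 genes tested on the chromosome other than *Dek*, 4.14% had an unadjusted p under 0.05, 16 of them higher and 10 lower in *Dek* cKO. This share lay below the 6.64% of all genes tested. The gene that passed was *Serpinb6e*, a serine protease inhibitor gene 13.3 Mb from *Dek*, named after its values were seen. It was at 0.0603 TPM in WT, with a lowest value of 0 and a highest of 0.135, and at 0.601 TPM in *Dek* cKO, from 0.360 to 0.795. The WT mean lay below the 0.1 TPM filter, so the gene was tested only through its *Dek* cKO values. Its log2(TPM + 0.1) difference was 2.13 (limma adjusted p = 0.00718), or 0.59 with 1 TPM added in place of 0.1. The call was lost among libraries with the CMV prefix alone (adjusted p = 0.149). *Serpinb6e* belongs to a cluster of similar genes, among which reads may be shared.

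Genes that work in the same pathways or belong to the same families as the 5 members were taken as 5 lists, and 0 of them passed the threshold in limma. Of 17 genes encoding DEK partners and H3.3 chaperones, 1 had an unadjusted p under 0.05, a share close to the 6.64% of all genes. This was *Hira*, which encodes a chaperone of H3.3, at 38.0 TPM in WT and 42.4 TPM in *Dek* cKO, a log2 difference of 0.16 (limma unadjusted p = 0.0125, adjusted p = 0.584). The list had a median log2 difference of 0.03, beside 0.02 over all genes. Its extremes were -0.20 for *Asf1b*, another histone chaperone, and 0.18 for *Csnk2a2*, a catalytic subunit of casein kinase 2, which phosphorylates DEK.

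In the 4 lists of the neighbours, no tested gene had an unadjusted p under 0.05 over all 12 libraries, beside 6.64% of all genes. The 9 genes of KDM1 family and CoREST partners that were tested, of 10 listed, had a median log2 difference of 0.0041 and extremes of -0.18 for *Rcor3* and 0.18 for *Rcor2*, both CoREST subunits. Of 14 RING-between-RING ligases, 13 were tested, with a median of 0.0034. *Rnf19b*, a ligase of this class, was at 0.14. The 19 genes of malin, laforin and glycogen metabolism had a median of 0.01, from -0.16 for *Gyg*, which encodes the primer of glycogen synthesis, to 0.13 for *Pygl*, a glycogen phosphorylase. The 12 tested genes of 13 in thiopurine and purine salvage had a median of 0.04, with 0.38 for *Aox3*, an aldehyde oxidase, and 0.18 for *Pacsin2*. Of the 10 genes named from the 5 lists, 4 besides *Hira* reached an unadjusted p under 0.05 under some alternative, among them *Gyg* at -0.34 without both libraries of conflicting sex (limma unadjusted p = 0.0407, adjusted p = 0.679). The lowest adjusted p of the 10 under any alternative was 0.359, for *Hira* in limma.

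The genes whose levels tracked *Dek* most closely over the 12 libraries were not its neighbours. The highest Pearson correlations of log2(TPM + 0.1) were those of *Hcrt*, the orexin precursor (r = 0.887), *Ldhd*, a lactate dehydrogenase (0.887), and *Ccdc34* (0.883). Among the lowest were those of *Gm15319* (-0.975) and *Col7a1*, a collagen (-0.971). The libraries fall into 2 clusters by genotype, so these values describe the split and not a graded relation. With group means removed they became -0.24, 0.40 and 0.69, and 0.07 and -0.06. Levels of *Hcrt* were low, 0.529 TPM in WT and 0.0431 TPM in *Dek* cKO. The *Dek* cKO mean lay below the 0.1 TPM filter, so *Hcrt* was tested only through its WT values. Among the neighbours the correlations with *Dek* were 0.50 for *Kdm1b*, 0.23 for *Tpmt*, 0.04 for *Rnf144b* and -0.59 for *Nhlrc1*, and with group means removed 0.08, -0.28, 0.47 and -0.43.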

How the data were processed

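Hippocampal RNA was poly-A selected and sequenced as paired-end, stranded libraries from 12 samples in 4 groups of 3. The authors deposited 1 table of TPM, scaled per library and for transcript length, in which each column was matched to its sample by name. The submitters' processing notes name kallisto and mm10, whereas the study's methods describe STAR, Salmon and DESeq2 on GRCm38, so which tool wrote the table is not given in the sources used here. TPM values hold no read counts, so depth and counting error are unknown and no count test was possible.

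Genes were matched by Ensembl identifier to GENCODE M21, which held 25262 of 26409 listed genes. Positions and exon sequences came from that annotation. Values were analysed as log2(TPM + 0.1), which understates changes of low genes, for 18197 genes averaging 0.1 TPM or more. Genotypes and sexes were compared by limma 3.58.1 in R 4.3.3, using a trended prior variance and two-sided tests, with Benjamini-Hochberg adjustment over all genes tested. Both sexes were compared in a fit of 2 groups, and single sexes and their interaction in a fit of 4 groups. The threshold was an adjusted p below 0.05 and a change of more than 1.2-fold. Exact permutation tests enumerated every assignment of libraries to genotypes. The procedure was tested on simulated normal noise in which 200 of 18197 genes were changed by 1 on the log2 scale. It recovered 65% of them, with 10 false calls, so genes that truly differ can fail to pass. The labels number the replicates without naming animals, whereas the study's legends count 3 mice for each genotype and sex.

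The 5 genes and all lists were chosen with earlier results of these data known. Named genes were the 5 members, tested genes within 0.5 Mb of the *Dek* start, any gene within 5 Mb that passed, the 2 most changed and any called gene of each pathway list, and the 3 highest and 3 lowest correlations with *Dek*; others are marked in the text. Among the genes chosen by this rule, 2 are not reported here. Alternatives changed the value added before the log2 transform, the filter, the scaling, the prior variance, a sex covariate, a replicate block, and the libraries included.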

Additional observations from a re-analysis of the deposited data

How the results depend on the processing

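The fall of *Dek* over both sexes passed the threshold under each alternative tried, with log2 fold changes from -2.82 to -2.60, and no neighbour passed under any. Of 1003 alternative values for 45 results, 956 counted as unchanged, 29 changed sign and 18 no longer passed. For a fold change, unchanged means the same direction and the same side of the threshold. For the residual *Dek* transcript it means a shift smaller than the SD between *Dek* cKO libraries. For passing genes within 5 Mb it means the same count. Median ratio rescaling and quantile normalization turned the sign of *Rnf144b* over both sexes (-0.0096 and -0.014), *Fam8a1* (-0.0099 and -0.0078) and *Nhlrc1* in females (-0.017 and -0.0082). *Tpmt* in males became 0.051 without both libraries of conflicting sex, and *Nup153* became 0.0076 among libraries with the CMV prefix. Leaving out 1 library at a time gave -2.82 to -2.67 for *Dek*, 14.1% to 15.7% for its residual transcript, -0.19 to -0.10 for *Kdm1b*, -0.12 to -0.03 for *Tpmt*, -0.088 to 0.12 for *Rnf144b* and 0.07 to 0.12 for *Nhlrc1* over both sexes. It gave -0.052 to 0.037 for *Nhlrc1* in females, -0.078 to 0.051 for *Tpmt* in males, -0.27 to 0.0022 for the *Dek* interaction and -0.17 to 0.019 for the *Kdm1b* interaction. It also turned the sign of *Asf1b* (-0.35 to 0.036), *Fam8a1* (-0.0057 to 0.034), *Kif13a* (-0.039 to 0.079), *Nup153* (-0.047 to 0.0040) and *Rnf19b* (-0.0010 to 0.20). *Gyg* ranged from -0.34 to -0.07 and *Pygl* from 0.06 to 0.31 over all alternatives. The cause of these changes was not tested.

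The number of genes that passed over both sexes was 27, and it was 17 without a filter, 16 without both libraries of conflicting sex, 8 among libraries with the CMV prefix and 13 to 27 with 1 library left out, falling to 15, 13 and 17 without female *Dek* cKO replicate 1, female *Dek* cKO replicate 2 and male *Dek* cKO replicate 1. With the replicate block, *Dek* had the same log2 fold change of -2.74 (limma adjusted p = 6.23e-05), no neighbour passed, and 3 genes passed in place of 27. No pairing by number was detected. Deviations from the group means of same-numbered libraries correlated at -0.04 to 0.04, and 3 of 12 libraries correlated best with their own number. These values cannot show whether same-numbered mice were related or handled together. *Serpinb6e* was lost under the block (adjusted p = 0.110). The sexes in the labels, the C57 and CMV name prefixes and the absence of read counts limit what can be said about the 4 neighbours, whose intervals reach from folds of 0.786 to 1.24 over both sexes and from 0.662 to 1.53 within a sex.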
